A study of Homo sapiens with 6 samples.

Results

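Kinesins and myosins are the motor proteins that walk along microtubules and actin filaments, and their genes were followed here in SH-SY5Y cells treated with either of 2 inhibitors of protein disulfide isomerase. The genes were protein-coding genes with a symbol starting with KIF and a digit or C, or with MYO and a digit, and KIF20A was left out. This gave 63 genes, 41 kinesins and 22 myosins, out of 14884 genes that the array's annotation named. Heavy chain genes with MYH symbols, and with them the class II myosins of muscle and of nonmuscle cells, are not analysed here, nor are MYO5A and MYO15B.

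SH-SY5Y is an established human neuroblastoma line, and all cultures were of this 1 line. The groups were mock treatment with methanol, the solvent, securinine at 30 µM and 16F16 at 4 µM, all for 24 h. Each group had 2 arrays that carried deposited log2 values for 53617 probe sets, and the labels name them biological replicates without saying how the cultures were separated, so a p-value measures the spread between these samples, which may be technical. The compounds were given at 1 dose each and the doses differ, so their values stand side by side and a difference between them is between these 2 treatments. Of 14 markers of noradrenergic neuroblastoma, the state this line is known for, 10 were measured, and all 10 lay above the median of all values on every array. Their mean log2 level was 10.1 on both mock arrays, 9.38 and 9.48 with securinine and 9.77 and 9.80 with 16F16. At a limma adjusted p under 0.05, 5 of them fell with securinine (CHGA, DDC, GATA2, DBH and STMN2) and 0 rose, where 10.6% of all genes fell. With 16F16 2 of the 10 fell and 0 rose, where 0.779% of all genes fell. Muscle markers averaged 4.56 to 4.67 on the log2 scale over 8 measured genes, with 4 above the median on every array. Epithelial, blood and endothelial markers averaged 4.27 to 4.47 over 8 genes, with 3 above that median, namely EPCAM, KRT8 and KRT18. No measured gene of either list lay below the lower quartile on all 6 arrays, and detection calls were not used here.

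A motor of either family hydrolyses ATP in its head and moves a cargo bound to its tail. Most kinesins walk toward the plus ends of microtubules, which in axons point away from the cell body, so kinesins carry vesicles, mitochondria and RNA outward, and a separate group builds and divides the mitotic spindle. Unconventional myosins move along actin, bend or tether membranes, and shape filopodia and vesicle traffic near the cell surface.

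Most motor genes were measured well above the bulk of the array. Of the 63 genes, 38 had a mean log2 value above the upper quartile of all values (6.13), 16 between it and the median, 8 between the median and the lower quartile (2.82) and 1, MYO3A, below that. All 12 mitotic kinesins were above the upper quartile, with means from 8.31 to 10.7, and so were 13 of 17 cargo transport kinesins. Of the 12 myosins listed outside classes I, V and VI, 8 lay above the median on every array. Probe sets differ in brightness, so these levels give no order of transcript amounts between genes.

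Securinine changed 13 of the 63 motor genes, 6 higher and 7 lower, at an adjusted p under 0.05 (limma, Benjamini-Hochberg over 14884 genes). That share lies near the background of this comparison, in which 19.0% of all genes passed, 8.40% higher and 10.6% lower, so the count is not particular to motor genes. In RNA from whole cultures, fewer cells that hold a transcript and less of it per cell cannot be told apart. With 16F16, KIF1C alone of the 63 passed, higher than mock, against 1.50% of all genes (0.719% higher, 0.779% lower). In limma 12 motor genes were higher and 6 lower with 16F16 at an unadjusted p under 0.05 (19.0% and 9.52%), where 9.78% and 11.3% of all genes were. The median difference of the 63 genes was -0.10 on the log2 scale with securinine and -0.039 with 16F16, beside -0.035 and -0.012 over all genes. With securinine 15 motor genes had both arrays above both mock arrays and 29 had both below, where 27.0% and 33.9% of all genes did. With 16F16 19 lay above and 21 below, where 24.1% and 27.7% of all genes did. Both comparisons use the same mock arrays, so their values are not independent of each other.

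**Figure D1:**
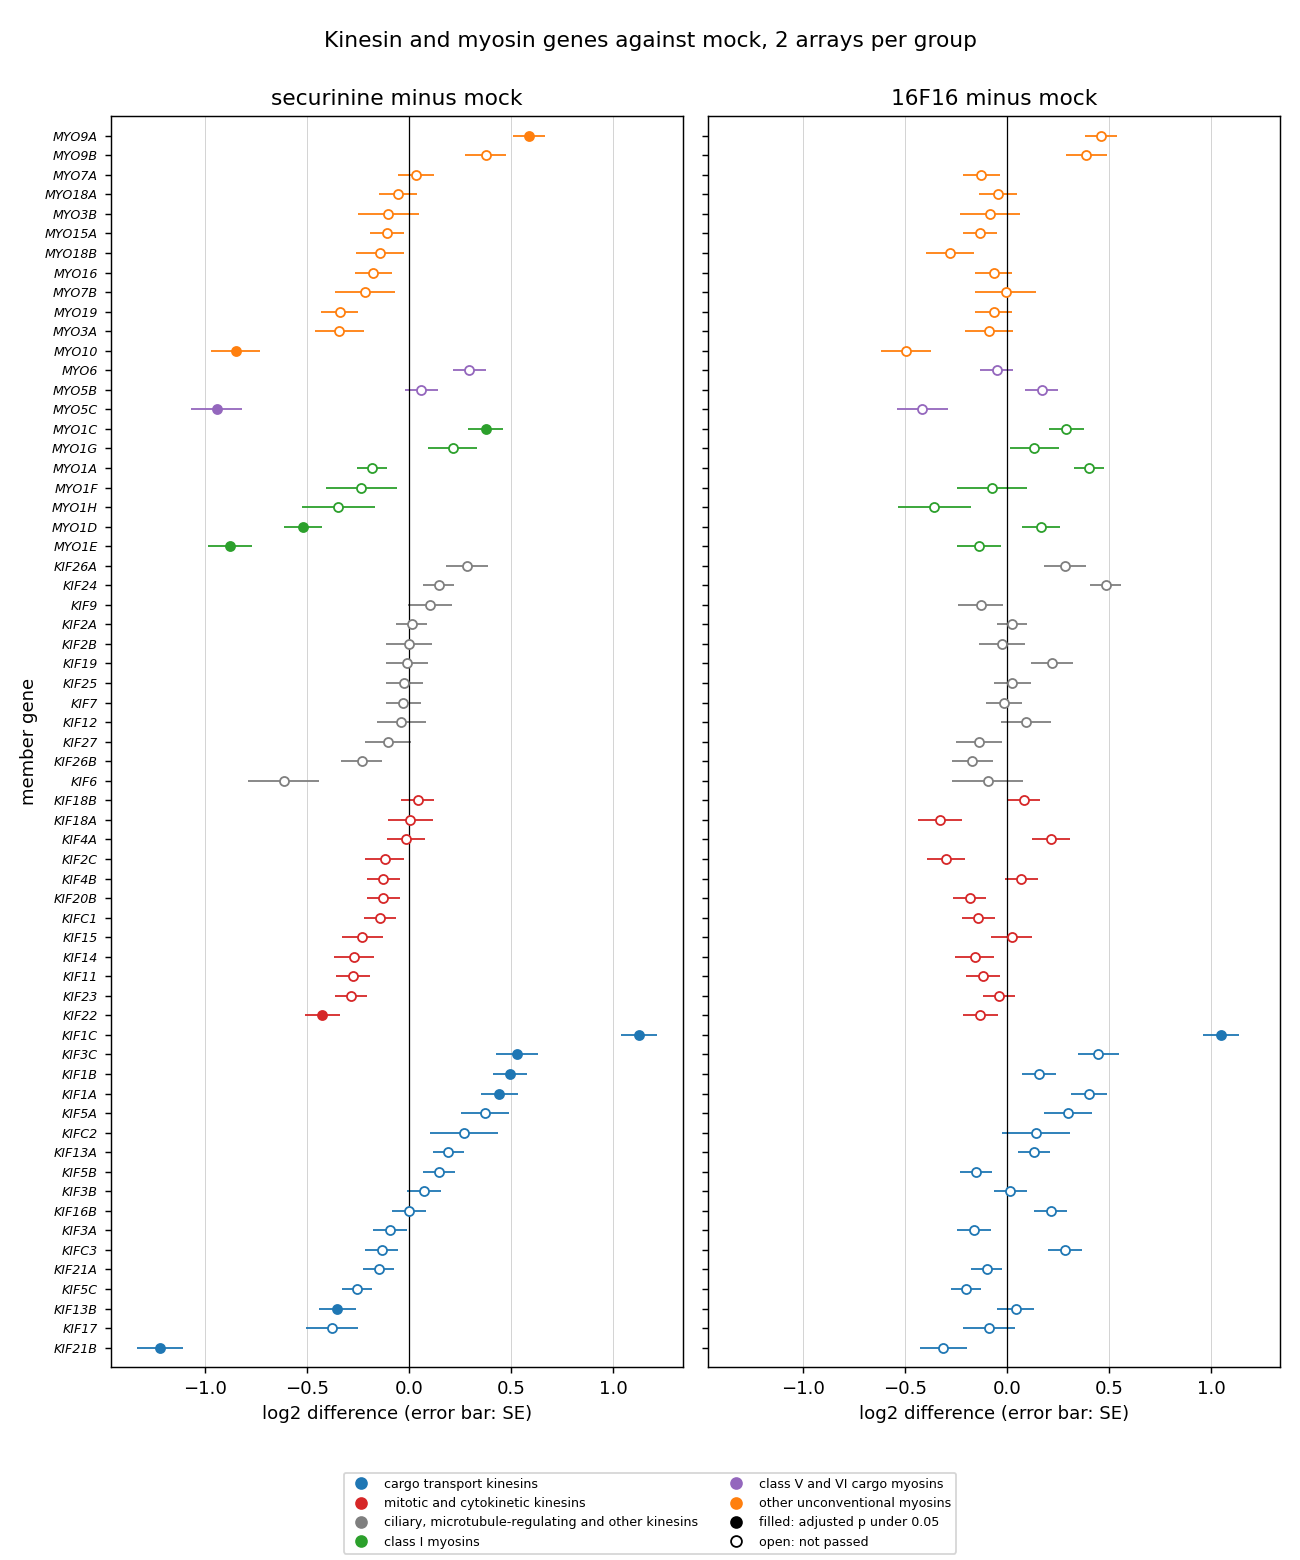
Log2 difference from mock of each of the 63 motor genes (points, error bars are SE, 2 arrays per group), securinine on the left and 16F16 on the right, coloured by role, with filled points for an adjusted p under 0.05. With securinine 13 points are filled, from KIF21B at -1.22 to KIF1C at 1.13, and with 16F16 1 is filled, KIF1C at 1.05.

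The largest rise among motor genes was that of KIF1C, with both compounds. KIF1C is a kinesin-3 motor that carries vesicles and RNA toward microtubule plus ends and into cell protrusions. Its log2 value was 6.55 and 6.56 on the mock arrays, 7.65 and 7.71 with securinine, and 7.67 and 7.53 with 16F16. Every treated array lay above both mock arrays, and the arrays of the 2 treatments overlapped. The rise was 1.13 ± 0.086 (SE, n = 2 arrays per group) with securinine, 2.18-fold, and 1.05 ± 0.086 with 16F16, 2.07-fold, with limma adjusted p-values of 0.0028 and 0.026. The difference between 16F16 and securinine was -0.078, with a 95% interval from -0.29 to 0.14. The securinine call held in all 14 alternatives (adjusted p up to 0.034). The 16F16 call was lost when any 1 of the 6 arrays was left out, with adjusted p-values of 0.19 and 0.17 without mock replicates 1 and 2, 0.087 without either securinine replicate, and 0.083 and 0.13 without 16F16 replicates 1 and 2. It was also lost with every probe set tested (0.12), with the replicate number as a block (0.077) and with the 4 arrays of these groups alone (0.087), while the difference stayed between 0.98 and 1.12. With 16F16, 0 of the 53617 probe sets passed when every one was tested. With the block or the 4 arrays, 0 of the 14884 genes did. Calls over all genes were also lost when any 1 array was left out, so the loss is not particular to KIF1C.

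The start of KIF1C is shown because this gene passed with both compounds. The sequence is RefSeq's window of 300 bases, 250 before and 50 after the annotated start, at chr17:4997700-4997999 of GRCh38.p14, plus strand. Capitals mark 4 GC boxes (GGGCGG on either strand), a motif bound by SP1-type factors. A GC box was in 56.3% of 22199 such windows of protein-coding genes and in 78.3% of the 69 windows of motor genes. Neither a CCAAT box nor a CHR element, both described with the mitotic kinesins, was found in this window.
KIF1C: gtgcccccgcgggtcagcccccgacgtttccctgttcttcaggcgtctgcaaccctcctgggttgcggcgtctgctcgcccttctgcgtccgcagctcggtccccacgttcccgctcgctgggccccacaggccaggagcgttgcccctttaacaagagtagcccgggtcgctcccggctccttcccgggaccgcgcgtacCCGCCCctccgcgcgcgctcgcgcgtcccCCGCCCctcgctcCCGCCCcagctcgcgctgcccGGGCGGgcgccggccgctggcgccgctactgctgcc

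Other cargo transport kinesins moved both ways with securinine. Of 17 genes of this role 4 rose and 2 fell, and 11 did not pass, where 8.40% of all genes rose and 10.6% fell. The neuronal kinesin-3 KIF1A, which carries precursors of synaptic vesicles, read 8.61 and 8.64 on the mock arrays, 9.00 and 9.15 with securinine, and 9.07 and 8.99 with 16F16. Its treated arrays were all above its mock arrays. It rose by 0.44 ± 0.090 with securinine (limma adjusted p = 0.024) and was at 0.40 ± 0.090 with 16F16, where it did not pass (adjusted p = 0.088). KIF1B, a kinesin-3 that carries mitochondria and synaptic vesicle precursors and lies in a chromosome region often lost in neuroblastoma, read 9.07 and 9.00 in mock, 9.49 and 9.57 with securinine, and 9.24 and 9.15 with 16F16. The securinine arrays were the highest of the 6. KIF1B rose by 0.50 ± 0.085 with securinine (adjusted p = 0.015) and was at 0.16 ± 0.085 with 16F16. A second, dimmer probe set of KIF1B had a mean of 5.11 and was 0.10 higher with securinine, and the mean of both probe sets did not pass (adjusted p = 0.067). KIF3C, a subunit of the kinesin-2 motors, read 9.22 and 9.01 in mock, 9.64 and 9.64 with securinine, and 9.62 and 9.50 with 16F16. It rose by 0.53 ± 0.10 with securinine (adjusted p = 0.021) and was at 0.45 ± 0.10 with 16F16, without passing.

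KIF21B and KIF13B were the transport kinesins that fell with securinine. KIF21B, a kinesin-4 that moves along dendritic microtubules and limits their growth, read 6.06 and 5.99 in mock, 4.67 and 4.94 with securinine, and 5.77 and 5.66 with 16F16. The groups were fully apart, with securinine lowest. KIF21B fell by 1.22 ± 0.11 with securinine, 2.33-fold, the largest fall among the 63 genes (limma adjusted p = 0.0041), a call that held in all 14 alternatives. It was at -0.31 ± 0.11 with 16F16 without passing. KIF13B, a kinesin-3 that carries phosphoinositides and membrane receptors, read 8.21 and 8.07 in mock, 7.74 and 7.85 with securinine, and 8.17 and 8.20 with 16F16. It fell by 0.35 ± 0.091 with securinine, and its adjusted p of 0.050 (rounded) lay just under the threshold.

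Without mock replicate 1, mock replicate 2, securinine replicate 1 or securinine replicate 2, the fall of KIF13B and the rises of KIF1A, KIF1B and KIF3C no longer passed. Their adjusted p-values over leaving out 1 array reached 0.21, 0.12, 0.092 and 0.10, and none of these 4 genes passed with every probe set tested. With the replicate number as a block KIF13B (0.090) and KIF1A (0.051) were lost. KIF13B was also lost with the 4 arrays compared alone (0.075) and without either 16F16 replicate. Calls over all genes with securinine also fell in each of these settings, so the losses are not particular to these 4 genes.

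**Figure D2:**
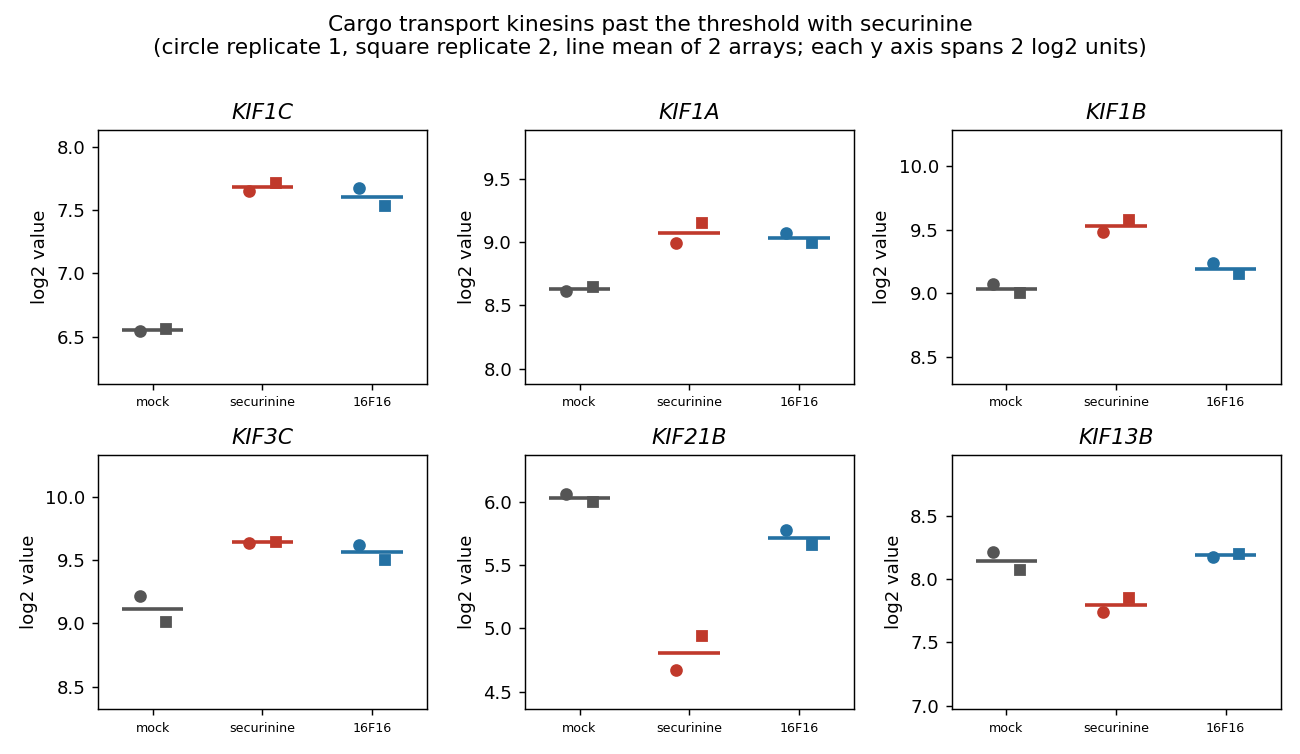
Log2 values of the 6 cargo transport kinesins that passed with securinine, on each of the 6 arrays (circles replicate 1, squares replicate 2, lines the mean of 2 arrays). KIF1C sits near 6.55 in mock and between 7.53 and 7.71 on the 4 treated arrays, and KIF21B is lowest with securinine, at 4.67 and 4.94.

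The conventional kinesin heavy chains of the KIF5 family, the main carriers of axonal transport, did not pass with either compound. KIF5B, the ubiquitous member, read 11.11 and 11.14 in mock, 11.26 and 11.28 with securinine, and 10.93 and 11.02 with 16F16. The securinine arrays were above and the 16F16 arrays below the mock arrays, with differences of 0.15 ± 0.078 and -0.15 ± 0.078. The neuronal members KIF5A and KIF5C were at 0.37 ± 0.12 and -0.25 ± 0.073 with securinine, and at 0.30 ± 0.12 and -0.20 ± 0.073 with 16F16. Of the other kinesin-2 motors, KIF3A, KIF3B and KIF17 were at -0.093 ± 0.082, 0.074 ± 0.082 and -0.37 ± 0.13 with securinine, where KIF3C rose, and none of the 3 passed.

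Of 12 mitotic and cytokinetic kinesins 1 passed with securinine and 0 with 16F16, and most of their differences were small and negative. Over all genes 8.40% rose and 10.6% fell with securinine, and 1.50% passed with 16F16, so these counts are not particular to this role. KIF22 fell with securinine and 11 did not pass. With 16F16 2 of the 12 were lower at an unadjusted p under 0.05 in limma, where 11.3% of all genes were. KIF22, a chromokinesin that pushes chromosome arms toward the spindle middle, read 8.73 and 8.70 in mock, 8.36 and 8.23 with securinine, and 8.62 and 8.56 with 16F16. The securinine arrays were the lowest. It fell by 0.42 ± 0.085 with securinine (limma adjusted p = 0.024), and was at -0.13 ± 0.085 with 16F16. The call was lost without mock replicate 1 (0.12), mock replicate 2 (0.10), securinine replicate 1 (0.067) or securinine replicate 2 (0.11), and with every probe set tested (0.093). Calls over all genes with securinine also fell in these settings, so the loss is not particular to KIF22. KIF11, the motor that slides spindle poles apart, read 10.80 and 10.83 in mock, 10.59 and 10.49 with securinine, and 10.66 and 10.73 with 16F16. Its difference of -0.27 ± 0.082 with securinine did not pass (adjusted p = 0.071). KIF23, the motor of the centralspindlin complex that acts in cytokinesis, was at -0.29 ± 0.078 with securinine (adjusted p = 0.057).

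Over the 12 mitotic genes 10 differences were negative with securinine, with a median of -0.13 and a range from -0.42 to 0.043. With 16F16 8 were negative, with a median of -0.12 and a range from -0.33 to 0.22. Over all 14884 genes 8244 and 7803 were negative, with medians of -0.035 and -0.012. Both securinine arrays lay below both mock arrays for 8 mitotic genes and above for 1, where 33.9% and 27.0% of all genes did. Both 16F16 arrays lay below for 7 and above for 2, where 27.7% and 24.1% of all genes did. KIF18A, which dampens chromosome movement at the metaphase plate, and KIF2C, a microtubule depolymerase at centromeres, were at -0.33 ± 0.11 and -0.30 ± 0.095 with 16F16, below both mock arrays, without passing. They were at 0.0075 ± 0.11 and -0.12 ± 0.095 with securinine, where each overlapped mock. KIF4A and KIF4B are near-identical copies, and KIFC1 has 4 probe sets of which 2 hold identical values, so their separate values are uncertain.

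With securinine, where 10.6% of all genes fell and 8.40% rose, 4 of 10 proliferation markers fell, TOP2A, MCM2, MCM6 and CCNE1, and 0 rose. Their mean log2 level over the 10 was 9.73 and 9.76 on the mock arrays, 9.37 and 9.43 with securinine, and 9.60 and 9.63 with 16F16. All 10 lay above the median on every array. MKI67, the standard proliferation antigen, was at 10.70 and 10.66 in mock, 10.70 and 10.64 with securinine, and 10.89 and 10.92 with 16F16. The part of these markers in the values of the mitotic kinesins was not tested. Of 16 measured spindle and midzone partners, 2 fell with securinine, INCENP (-0.43 ± 0.080) and AURKB (-0.42 ± 0.097) of the chromosomal passenger complex, and 0 rose.

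**Figure D3:**
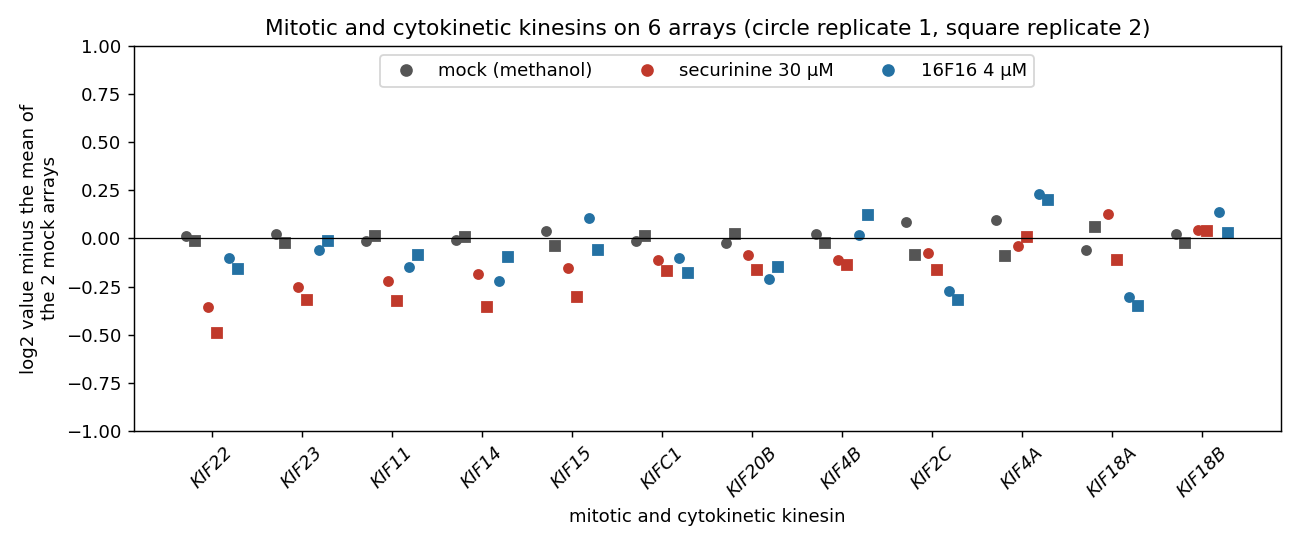
Log2 value of each mitotic or cytokinetic kinesin on each array, minus the mean of the 2 mock arrays (grey mock, red securinine, blue 16F16; circles replicate 1, squares replicate 2). KIF22 with securinine is the lowest of the set with a mean of -0.42, and KIF18A and KIF2C are lowest with 16F16.

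Most mitotic kinesins shared motifs in their start windows. Genes of late cell cycle phases are known to be kept silent outside division by a complex that binds the CHR element, often with CCAAT boxes upstream. The element was searched as TTTGAA, its usual form, and as its known variant spelled TTCGAA, on either strand. Start windows were found in RefSeq for 53 of the 63 motor genes, 69 windows in all since 11 genes had several. A CHR element on either strand was in 12 of 13 windows of mitotic kinesins (92.3%), against 13.7% of windows of protein-coding genes and 8.93% of the 56 windows of the other motor genes. A CCAAT box on either strand was in 10 of 13 (76.9%), against 34.7% and 26.8%. Both motifs were in 76.9%, against 5.48% and 5.36%. KIF2C was the mitotic kinesin with neither a CHR element nor a CCAAT box in its window, and KIF15 had a CHR element without a CCAAT box. A GC box, described with KIF1C, was also in 12 of 13 windows of mitotic kinesins (92.3%), against 56.3% and 75%. The pair of KIF22 windows overlap and share 1 CHR element. A match is a description of letters, and binding was not measured.

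KIF22, KIF23 and KIF11 are printed because they had the 3 largest negative differences of this role with securinine. The windows, all of GRCh38.p14 and on the plus strand, are chr16:29790501-29790800 for KIF22, chr15:69414099-69414398 for KIF23 and chr10:92592880-92593179 for KIF11. Outside the mitotic kinesins, 3 genes had a window with both motifs, KIF24, KIF5B and MYO16. KIF24 is added for its 3 CCAAT boxes, at chr9:34329219-34329518 on the minus strand. Capitals mark CCAAT boxes, which read ATTGG where the box is on the other strand, and CHR elements, where the usual form on the other strand reads TTCAAA.
KIF22: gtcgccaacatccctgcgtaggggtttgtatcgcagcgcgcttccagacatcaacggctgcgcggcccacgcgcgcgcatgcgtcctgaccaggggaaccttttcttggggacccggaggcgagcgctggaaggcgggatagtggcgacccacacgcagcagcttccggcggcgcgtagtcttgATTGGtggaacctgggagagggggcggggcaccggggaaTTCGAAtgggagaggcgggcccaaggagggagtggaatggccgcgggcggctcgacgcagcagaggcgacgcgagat
KIF23: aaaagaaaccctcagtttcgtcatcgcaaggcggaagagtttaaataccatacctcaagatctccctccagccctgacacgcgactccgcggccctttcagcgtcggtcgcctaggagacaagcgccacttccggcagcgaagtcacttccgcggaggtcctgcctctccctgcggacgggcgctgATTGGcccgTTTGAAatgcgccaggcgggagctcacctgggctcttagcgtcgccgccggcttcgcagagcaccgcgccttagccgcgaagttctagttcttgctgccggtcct
KIF11: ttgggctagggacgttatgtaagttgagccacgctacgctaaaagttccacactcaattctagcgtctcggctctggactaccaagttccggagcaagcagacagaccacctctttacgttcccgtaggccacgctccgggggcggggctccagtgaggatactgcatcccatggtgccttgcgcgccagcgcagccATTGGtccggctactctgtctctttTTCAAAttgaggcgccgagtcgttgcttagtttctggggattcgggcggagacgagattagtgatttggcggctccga
KIF24: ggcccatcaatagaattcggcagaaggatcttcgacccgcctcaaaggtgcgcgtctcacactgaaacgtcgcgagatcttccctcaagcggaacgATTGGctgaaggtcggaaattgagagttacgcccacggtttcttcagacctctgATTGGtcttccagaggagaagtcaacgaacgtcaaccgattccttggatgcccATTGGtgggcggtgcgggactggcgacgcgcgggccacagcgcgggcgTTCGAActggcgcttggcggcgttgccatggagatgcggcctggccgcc
In KIF22, KIF23 and KIF11 the CCAAT box comes first and the CHR element follows it before the start, the box beginning at base -66, -64 and -53 and the element at -27, -55 and -28 from the start. In KIF24 3 CCAAT boxes precede a CHR element that begins at base 2 after the start.

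**Figure D4:**
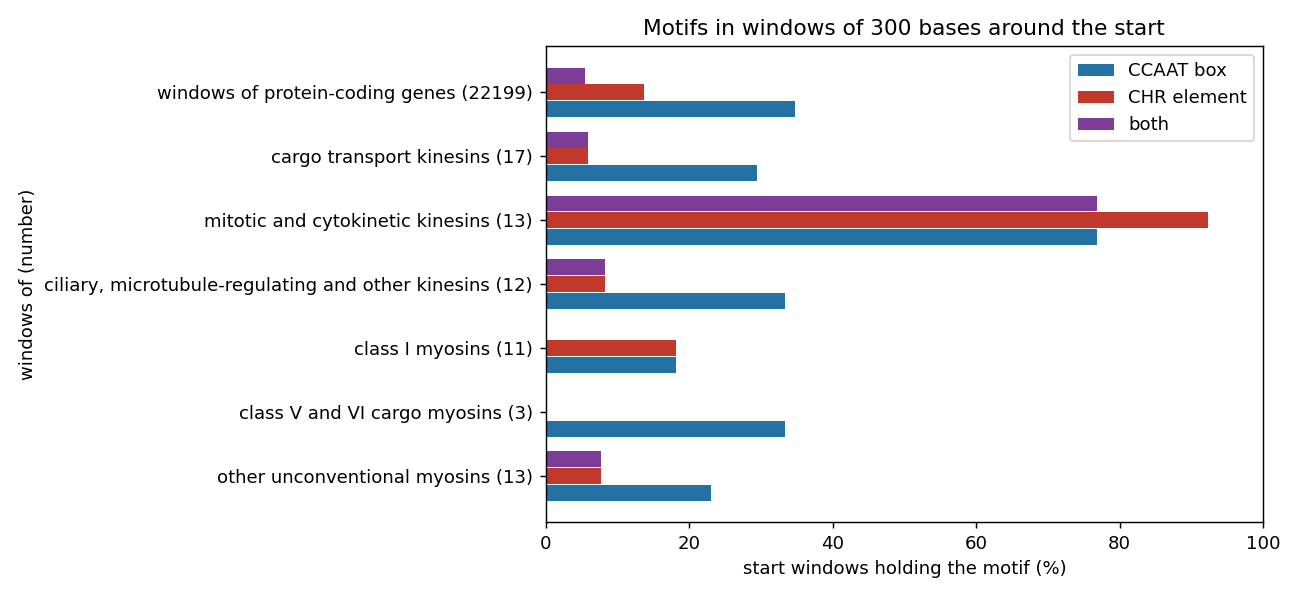
Share of RefSeq start windows of 300 bases (x axis, %) that hold a CCAAT box, a CHR element or both, by role of the motor gene, with windows of all protein-coding genes on top and the number of windows in brackets. Mitotic and cytokinetic kinesins stand at 76.9% for CCAAT and 92.3% for CHR, and the other roles at up to 33.3% for CCAAT and 18.2% for CHR.

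KIF24, a kinesin that trims centriolar microtubules and holds back cilium formation, had the second largest kinesin difference with 16F16. Its values were 6.29 and 6.30 in mock, 6.47 and 6.40 with securinine, and 6.78 and 6.78 with 16F16. The 16F16 arrays were the highest of the 6 and the mock arrays the lowest. The difference was 0.48 ± 0.076 with 16F16 and did not pass (limma adjusted p = 0.052), and it was 0.15 ± 0.076 with securinine. None of the 12 ciliary, microtubule-regulating and other kinesins passed with either compound in limma. Over all genes 8.40% rose and 10.6% fell with securinine, and 1.50% passed with 16F16. At an unadjusted p under 0.05 in limma, 1 of the 12 was higher and 1 lower with securinine, where 14.9% and 18.7% of all genes were. With 16F16 2 were higher at that threshold, where 9.78% of all genes were. KIF6 was at -0.61 ± 0.17 with securinine without passing, and on 1 array it read below the lower quartile of all values. KIF2A, the brightest of this group and a microtubule depolymerase of neurons, read between 9.89 and 9.96 on all 6 arrays. Its 95% intervals ran from -0.17 to 0.20 with securinine and from -0.16 to 0.21 with 16F16. KIF7, the ciliary kinesin of Hedgehog signalling, was at -0.028 and -0.014.

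Class I myosins, single-headed motors that link membranes to actin, went both ways with securinine. Of 7 genes MYO1C rose, MYO1D and MYO1E fell, and 4 did not pass, where 8.40% of all genes rose and 10.6% fell. MYO1E, which acts in endocytosis and cell adhesion, read 7.03 and 7.21 in mock, 6.15 and 6.34 with securinine, and 7.01 and 6.97 with 16F16. The securinine arrays were far below the other 4. MYO1E fell by 0.88 ± 0.11 with securinine, 1.84-fold (limma adjusted p = 0.0069), a call that held in all 14 alternatives. With 16F16 it was at -0.14 ± 0.11. MYO1D, a myosin of endosomes and of left-right asymmetry, read 7.44 and 7.27 in mock, 6.81 and 6.86 with securinine, and 7.56 and 7.47 with 16F16. It fell by 0.52 ± 0.093 with securinine (adjusted p = 0.018) and was at 0.17 ± 0.093 with 16F16, where both arrays lay above mock. MYO1C, which tethers vesicles at the plasma membrane, read 8.64 and 8.60 in mock, 8.94 and 9.05 with securinine, and 8.87 and 8.95 with 16F16. It rose by 0.38 ± 0.085 with securinine (adjusted p = 0.034) and was at 0.29 ± 0.085 with 16F16.

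Neither call of MYO1D nor that of MYO1C held without mock replicate 1 (adjusted p = 0.094 and 0.12), mock replicate 2 (0.058 and 0.15), securinine replicate 1 (0.095 and 0.087) or securinine replicate 2 (0.073 and 0.14). MYO1C was also lost without either 16F16 replicate, with the 4 arrays compared alone (0.051) and with quantile normalization (0.054). It was lost as well with the replicate block (0.062) and with every probe set tested (0.12), where MYO1D was lost too (0.069). Apart from quantile normalization, calls over all genes with securinine also fell in each of these settings, so those losses are not particular to these genes.

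Among the other myosins, MYO5C and MYO10 fell with securinine and MYO9A rose. MYO5C, a class V myosin of secretory vesicles in epithelia, read 5.49 and 5.64 in mock, 4.76 and 4.49 with securinine, and 5.09 and 5.21 with 16F16. It fell by 0.94 ± 0.12 with securinine, 1.92-fold (limma adjusted p = 0.0081, and 0.057 without mock replicate 2), and was at -0.41 ± 0.12 with 16F16. MYO10, the motor of filopodial tips, read 6.56 and 6.58 in mock, 5.57 and 5.88 with securinine, and 6.13 and 6.03 with 16F16. It fell by 0.85 ± 0.12 with securinine (adjusted p = 0.0096, and 0.061 and 0.063 without mock replicates 1 and 2), and was at -0.49 ± 0.12 with 16F16 without passing. The 16F16 arrays of both genes lay below mock and above securinine. MYO9A, a class IX myosin, read 7.52 and 7.47 in mock, 8.07 and 8.09 with securinine, and 8.00 and 7.91 with 16F16. It rose by 0.59 ± 0.080 with securinine, 1.50-fold (adjusted p = 0.0086), and was at 0.46 ± 0.080 with 16F16 (adjusted p = 0.060). The securinine call of MYO9A was lost without mock replicate 1, mock replicate 2, securinine replicate 1 or securinine replicate 2. Calls over all genes with securinine also fell without each of these arrays, so the losses are not particular to these myosins.

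Related myosins stood nearby without passing. MYO9B, the other class IX myosin, read 8.45 and 8.27 in mock and between 8.66 and 8.81 on the 4 treated arrays, with differences of 0.38 ± 0.10 and 0.39 ± 0.10. MYO6, the myosin that walks toward the minus ends of actin, read 7.95 and 8.06 in mock, 8.32 and 8.28 with securinine, and 7.97 and 7.94 with 16F16. Its difference with securinine was 0.30 ± 0.082 (limma adjusted p = 0.058). MYO19, a myosin of mitochondria, was at -0.34 ± 0.090 with securinine and -0.065 ± 0.090 with 16F16. MYO3A, MYO3B, MYO7A and MYO15A, known from hair cells as MYO6 is, and MYO18B, known from striated muscle, had differences between -0.34 and 0.036 with either compound and low levels, with means from 2.81 to 4.69.

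**Figure D5:**
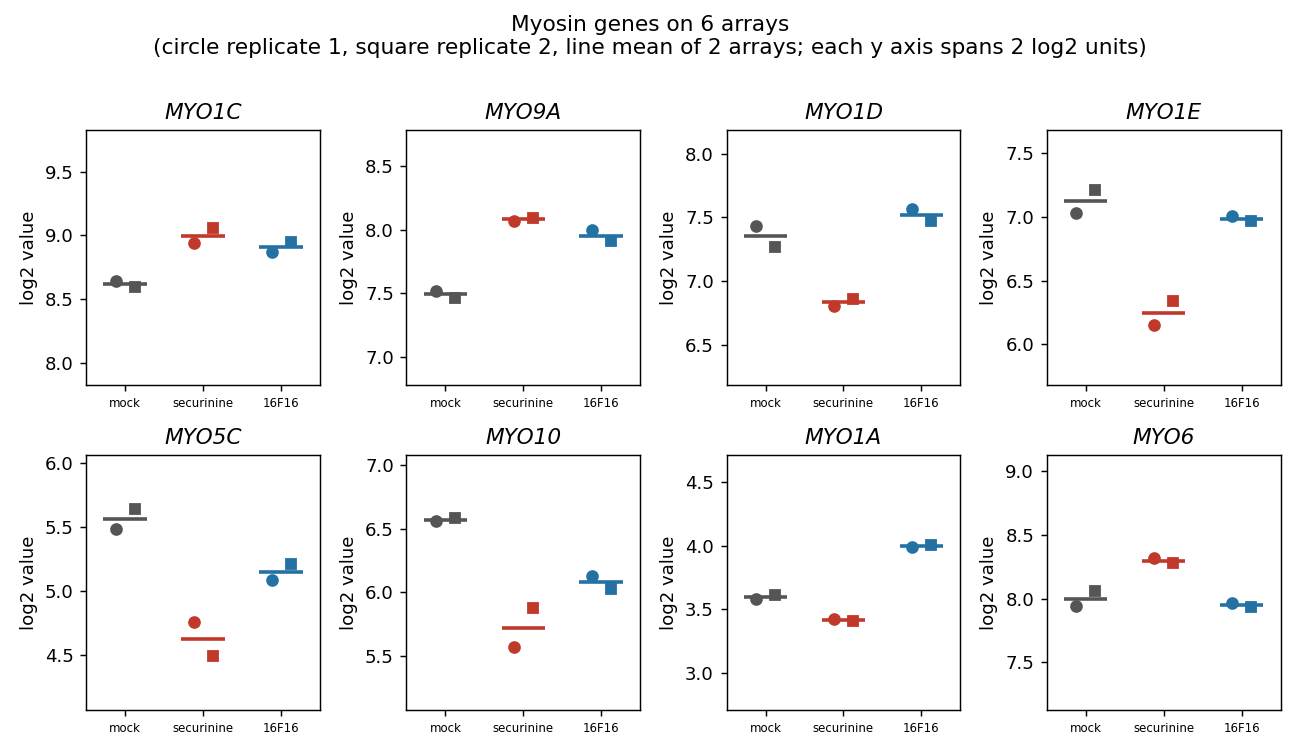
Log2 values of 8 myosin genes on each of the 6 arrays (circles replicate 1, squares replicate 2, lines the mean of 2 arrays): the 6 that passed with securinine, and MYO1A and MYO6. MYO1D and MYO1E are lowest with securinine, while MYO1A is highest with 16F16, at 3.99 and 4.01.

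The direct test of 16F16 against securinine called 5 motor genes, all higher with 16F16, where 9.51% of all genes passed (5.55% higher, 3.96% lower). Both 16F16 arrays lay above both securinine arrays for 25 motor genes and below for 12, where 29.3% and 26.4% of all genes did. KIF21B was 0.91 ± 0.11 higher (limma adjusted p = 0.016), MYO1E 0.74 ± 0.11 (0.021) and MYO1D 0.68 ± 0.093 (0.019). These are the genes described above whose securinine arrays lay far below both other groups. MYO1A, a class I myosin of intestinal brush borders that is dim here, read 3.58 and 3.61 in mock, 3.42 and 3.41 with securinine, and 3.99 and 4.01 with 16F16. It was 0.58 ± 0.074 higher with 16F16 than with securinine (adjusted p = 0.016), and passed against mock with neither compound. KIFC3, a motor that walks toward microtubule minus ends and acts at cell junctions and the Golgi, read 4.83 and 4.74 in mock, 4.65 and 4.65 with securinine, and 5.03 and 5.12 with 16F16. Its difference was 0.42 ± 0.082 (adjusted p = 0.037), and it too passed against mock with neither compound. The call of KIFC3 was lost with the replicate block (0.078) and with a variance prior that follows intensity (0.062). With only the 4 arrays compared, KIFC3 (0.078), MYO1A (0.050) and MYO1E (0.050) no longer passed, and with every probe set tested none of the 5 did. Over all genes 2.18% passed with the 4 arrays, and 0 of the 53617 probe sets passed when every one was tested.

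None of these 5 calls held without either securinine replicate or without either 16F16 replicate. The counts were 0 without securinine replicate 1, securinine replicate 2, 16F16 replicate 1 or 16F16 replicate 2, and 2 without mock replicate 1 or mock replicate 2. Without a securinine replicate the adjusted p-values were 0.086 and 0.065 for KIF21B, 0.12 and 0.081 for MYO1E, 0.11 and 0.091 for MYO1D, 0.10 and 0.091 for MYO1A, and 0.16 and 0.14 for KIFC3. Calls over all genes in this comparison also fell in each of these settings, so the loss is not particular to these 5 genes. For the genes that rose with securinine, the difference between the compounds is given with its 95% interval. It was -0.041 for KIF1A (-0.26 to 0.18), -0.080 for KIF3C (-0.33 to 0.17) and -0.085 for MYO1C (-0.30 to 0.13). For MYO9A it was -0.13 (-0.33 to 0.069), and for KIF1B -0.34 (-0.55 to -0.13, limma adjusted p = 0.065). Of these intervals only that of KIF1B left out 0.

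Partners of the motors were read from lists of 26, 26 and 27 genes. Over all genes 8.40% rose and 10.6% fell with securinine, and 0.719% rose and 0.779% fell with 16F16. Of 18 measured kinesin light chains and cargo adaptors, 4 rose and 3 fell with securinine, and none passed with 16F16 in limma, with 3 under 0.05 before adjustment. BICD2, an adaptor that joins cargo to dynein and kinesin, rose by 0.49 ± 0.079 with securinine. The endosome linker HOOK1 fell by 0.78 ± 0.11, and KIFAP3, the cargo-binding subunit of kinesin-2, by 0.40 ± 0.082. Of the dynein list 9 genes were measured, all of dynactin or dynein regulators, and dynein chains are not analysed here. Of these 9, 2 rose with securinine, NDEL1 (0.67 ± 0.088) and DCTN5 (0.31 ± 0.081), and 0 fell. Of the myosin light chain list 10 genes were measured, all regulators, and the light chains themselves are not analysed here. The kinases CDC42BPA and CDC42BPB rose by 0.87 ± 0.078 and 0.43 ± 0.081 with securinine. The ubiquitin ligase MYLIP, which binds myosin regulatory light chain and the LDL receptor, fell by 0.77 ± 0.095. With 16F16 no gene of either list passed in limma, with 1 and 3 under 0.05 before adjustment.

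Of 13 measured microtubule-binding proteins, 2 rose and 4 fell with securinine, and 1 rose and 1 fell with 16F16. Over all genes 8.40% rose and 10.6% fell with securinine, and 0.719% and 0.779% with 16F16. MAP1A, which stabilises microtubules in dendrites, read higher on every treated array and rose by 1.03 ± 0.076 with securinine and 0.89 ± 0.076 with 16F16 (limma adjusted p = 0.0027 and 0.026). MAPT, the gene of tau, fell by 1.22 ± 0.11 with securinine and was at -0.71 ± 0.11 with 16F16 (adjusted p = 0.051). MAP7, which recruits conventional kinesin to microtubules, fell by 0.80 ± 0.11 with securinine. Tubulin genes are not analysed here. DCX, doublecortin of young neurons, fell by 1.09 ± 0.12 with 16F16 and was at -0.15 ± 0.12 with securinine.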

How the data were processed

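The authors deposited log2 expression values per probe set. RMA and limma are the tools of these values per the submitters' processing notes, which give no versions. RMA normalizes between arrays, so values are relative within the set. Neither RMA's settings nor a genome build for the array were given in the sources used here.

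Probe sets were named through the platform's annotation table: 16098 of 53617 had 1 gene, 0 had several and 37519 were not named there. Gene types came from RefSeq (GRCh38.p14) by Entrez identifier, and the brightest probe set over the 6 arrays was taken per gene (3 motor genes had several). limma 3.58.1 in R 4.3.3 (lmFit, eBayes) was fitted to all 6 arrays and 14884 genes with group as the only term (3 residual and 2.68 prior degrees of freedom), with two-sided p-values adjusted by Benjamini-Hochberg and a threshold of 0.05. The number of arrays limits the precision. The script was tested on simulated data.

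Genes, lists and the naming rule were chosen with earlier results of these data known. Named are called motor genes and, per role, the brightest and the one with the lowest p in each comparison, with up to 3 per partner or marker list. KIF5A, KIF5C, KIF3A, KIF3B, KIF17, MYO16, KIF7, KIF18A, KIF23, KIF4A, KIF4B, KIFC1, TOP2A, MKI67 and the hair cell and muscle myosins were chosen after their values were seen. The 14 alternatives are described at the end.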

Additional observations from a re-analysis of the deposited data

How the results depend on the processing

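All values here are counts of motor genes at an adjusted p under 0.05 unless said otherwise, and the cause of each difference between settings was not tested. With the settings of the report securinine gave 6 higher and 7 lower, 16F16 1 higher and 0 lower, and 16F16 against securinine 5 higher and 0 lower. With every probe set tested as a feature, which adjusts over 53617, securinine gave 2 higher and 4 lower, 16F16 0 higher and 16F16 against securinine 0 higher. Of all probe sets 4.66%, 0% and 0% passed in these 3 comparisons. With quantile normalization 16F16 against securinine gave 8 higher, where 10.1% of all genes passed in either direction. With genes below the median of all values left out, securinine gave 9 higher and 11 lower, and 16F16 5 higher and 1 lower. There 16F16 against securinine gave 8 higher and 3 lower. Of the 10550 genes tested in this setting 35.9%, 10% and 24% passed in the 3 comparisons. With a variance prior that follows intensity, securinine gave 11 higher and 14 lower, 16F16 7 higher and 4 lower, and 16F16 against securinine 13 higher and 4 lower. Of all genes 27.7%, 12.1% and 20.9% passed with that prior. With only the 4 arrays compared, 16F16 gave 0 higher and 16F16 against securinine 2 higher, where 0% and 2.18% of all genes passed. Leaving out 1 array in turn gave 1 to 5 higher and 2 to 6 lower with securinine, 0 to 0 higher and 0 to 0 lower with 16F16, and 0 to 2 higher and 0 to 0 lower with 16F16 against securinine. The fewest with securinine, 1 higher and 2 lower, came without mock replicate 2, and 16F16 had no call without any 1 of the 6 arrays.

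Replicate 1 deviations from the group mean correlated across genes at -0.032 (mock and securinine), 0.038 (mock and 16F16) and -0.050 (securinine and 16F16). With 1 deviation per group, these cannot decide pairing. With the replicate number as a block, securinine gave 4 higher and 6 lower, 16F16 0 and 0, and 16F16 against securinine 4 and 0. Fewer of all genes passed too (13.9%, 0% and 3.38%). Lost were KIF13B, KIF1A and MYO1C with securinine, KIF1C with 16F16 and KIFC3 between compounds.

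Over all genes, 16F16 gave 223 calls, 1059 without the genes below the median, 1808 with the intensity-dependent prior, and in limma 0 with every probe set tested (7250 at an unadjusted p under 0.05), with the 4 arrays (2904), with the block (2856) and without any 1 array (2099 to 2904). Securinine gave 2823 (1251 higher and 1572 lower), 3785 without the genes below the median, 1016 higher and 1670 lower with arrays centred on their median, and 1426 higher and 1073 lower with every probe set tested. Without 1 array it gave 629 to 2462. For 16F16 against securinine the calls were 826 higher and 590 lower, 841 and 434 with centring, and 1009 and 489 with quantile normalization.

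For 72 differences of 24 named motor genes under 14 alternatives, 848 of 1002 values kept their direction and side of the threshold, 98 lost and 44 gained a call, and 12 turned sign, none of them called in either setting. KIF2A with securinine turned to -0.016 with centring, -0.0075 without mock replicate 1 and -0.0019 without securinine replicate 1, and with 16F16 against securinine to -0.0048 without securinine replicate 2 and -0.0046 without 16F16 replicate 2. Leaving out 1 array in turn moved the 16F16 difference from mock over -0.13 to 0.0033 for MYO19, -0.027 to 0.11 for KIF13B, -0.22 to 0.036 for KIF6 and -0.11 to 0.0065 for MYO6, the turned ends coming without mock replicate 1 for MYO19 and without mock replicate 2 for the others. It moved 16F16 against securinine over -0.12 to 0.037 for KIF1A, -0.062 to 0.089 for MYO9B and -0.0048 to 0.028 for KIF2A. KIF1A also turned to 0.038 there with quantile normalization. Of the 24 named genes MYO1A and KIF6 lie below the median, so they could not be tested with genes below it left out.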
